A study of Mus musculus with 8 samples.

Results

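The NF-kB induced microRNAs miR-146a, miR-146b and miR-155 were followed in CD34+/CD105- cells of the mouse renal artery by 4 real-time PCR assays. These were all assays named mmu-miR-146a, mmu-miR-146b, rno-miR-146B or mmu-miR-155, chosen by name from 750 miRNA assays, without the assay for the minor arm of miR-146b. The cells came from 4 mice after clamping of both renal arteries with a microvascular clamp and reperfusion, and from 4 mice after sham surgery. In both groups the artery was digested with collagenase and the cells were taken by fluorescence sorting. The sources used here do not give strain, age, sex, clamping time or reperfusion time, and each sample is labelled as 1 mouse of its group. CD34 marks endothelial and progenitor cells, and CD105 (endoglin) marks endothelial and mesenchymal stromal cells.

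NF-kB is a transcription factor that is activated by cytokine and Toll-like receptors. It raises transcription of the miR-146a gene, and miR-146a and miR-146b in turn repress the adaptor proteins TRAF6 and IRAK1 of the same receptors, which makes them brakes on inflammatory signalling. miR-155 is cut from the non-coding Mir155hg (Bic) transcript, is raised in activated macrophages, lymphocytes and endothelial cells, and represses SOCS1 and SHIP1, inhibitors of cytokine and phosphoinositide signalling.

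The mature sequences, taken from RefSeq on GRCm38.p6, are shown because they define which miRNAs share targets and which assays could read the same molecule. Capitals mark the seed (bases 2 to 8 from the 5′ end), which sets most target pairing. Of the 4 assays, 3 matched a RefSeq entry by name, as the 5p arm. No sequence is shown for the rat-designated rno-miR-146B assay.
mmu-miR-146a-5p: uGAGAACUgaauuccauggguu
mmu-miR-146b-5p: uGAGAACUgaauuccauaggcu
mmu-miR-155-5p: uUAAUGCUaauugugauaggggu

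miR-146a-5p and miR-146b-5p share the seed and are equal at 20 of 22 positions, differing by G18A and U21C, with positions counted from the 5′ end and the miR-146a base first. No other mature mouse miRNA in the RefSeq table has that seed, and none shares the seed of miR-155-5p. On GRCm38.p6, miR-146a-5p lies at chr11:43374435-43374456 on the minus strand, where the hairpin overlaps no other annotated gene. miR-146b-5p lies at chr19:46342790-46342811 on the plus strand, within the span of the long non-coding RNA gene Gm36493. miR-155-5p lies at chr16:84714143-84714165 on the plus strand, within the span of the long non-coding RNA gene Mir155hg. The 3 mouse-designated assays have catalogue numbers of 1 series, taken here as the first of 2 PCR cards, and rno-miR-146B is on the second.

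Values are PCR cycles to threshold (Ct), so abundant RNA gives a low Ct, and an assay counted as detected below Ct 35. Between 82 and 98 of the 750 assays were detected in ischemia/reperfusion mice and between 75 and 163 in sham mice. Sham mouse 2 stands apart from the other sham mice, with 75 assays detected against 127, 142 and 163. Endothelial miR-126 (both arms) was detected in all 8 mice. Of 6 leukocyte marker assays, between 3 and 4 were detected in ischemia/reperfusion mice and between 3 and 5 in sham mice. Of 12 epithelial and tubule assays, between 0 and 2 were detected in ischemia/reperfusion mice and between 0 and 4 in sham mice. miR-194 was at Ct 20.5 in sham mouse 3 and 23.7 in sham mouse 4, and miR-192 at 29.8 in sham mouse 4. Neither had a Ct in any ischemia/reperfusion mouse. miR-203 and miR-204 were each detected in 2 ischemia/reperfusion mice and 3 sham mice. The part of tubule RNA in the group differences was not tested. Each of the 3 erythroid assays was undetected in every mouse. Of 5 fibroblast and mesenchymal assays 3 were tested by limma. All had lower means after ischemia/reperfusion, as did 68.1% of the 72 miRNAs tested. Their median was -2.65 on the log2 scale beside -0.80 for all 72. An unadjusted p under 0.05 was reached by 2 of them and by 13.9% of the 72, and none passed adjustment. The 2 assays for miR-214 were at -3.95 (mmu-miR-214, undetected in sham mouse 2) and -0.86 (hsa-miR-214). Of 3 smooth muscle assays the 1 tested, miR-145, was at -2.09 (limma adjusted p = 0.278, unadjusted p = 0.0347). Endothelial miR-126-3p was at -1.59 (limma adjusted p = 0.228) and miR-126-5p at 0.11.

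miR-155 was the member read in every mouse, at overlapping levels in the 2 groups. Its Ct was 27.5, 28.8, 28.5 and 28.8 in ischemia/reperfusion mice 1 to 4, against 28.8, 28.5, 26.6 and 25.1 in sham mice 1 to 4. The groups overlapped, with sham mice 3 and 4 at the lowest Ct and sham mice 1 and 2 within the range of the ischemia/reperfusion mice. The mean Ct was 28.4 ± 0.650 after ischemia/reperfusion and 27.2 ± 1.74 in sham mice (SD, n = 4 per group).

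The miR-146 assays came up later and in fewer mice. For mmu-miR-146a, ischemia/reperfusion mouse 1 had a Ct of 34.7, mouse 2 had 35.2, over the limit, and mice 3 and 4 had none. In sham mice 1, 3 and 4 the mmu-miR-146a Ct was 32.7, 31.1 and 29.5, and sham mouse 2 had none. Both ischemia/reperfusion mice with a Ct were later than all 3 sham mice with one.

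mmu-miR-146b had the same pattern. Its Ct was 32.8 in ischemia/reperfusion mouse 1 and 36.0, over the limit, in mouse 2, with none in mice 3 and 4. In sham mice 1, 3 and 4 the mmu-miR-146b Ct was 30.8, 30.1 and 29.7, and sham mouse 2 again had none. The minor arm, assayed as mmu-miR-146b#, had no Ct in any of the 8 mice.

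rno-miR-146B did not follow that split. Its Ct was 32.8 in ischemia/reperfusion mouse 1 and 32.2 in mouse 4, with none in mice 2 and 3. In sham mice 1, 3 and 4 the rno-miR-146B Ct was 32.8, 32.4 and 30.0, with none in sham mouse 2. Ischemia/reperfusion mouse 4, which had no Ct in either mouse-designated miR-146 assay, was here at an earlier Ct than sham mice 1 and 3.

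**Figure D1:**
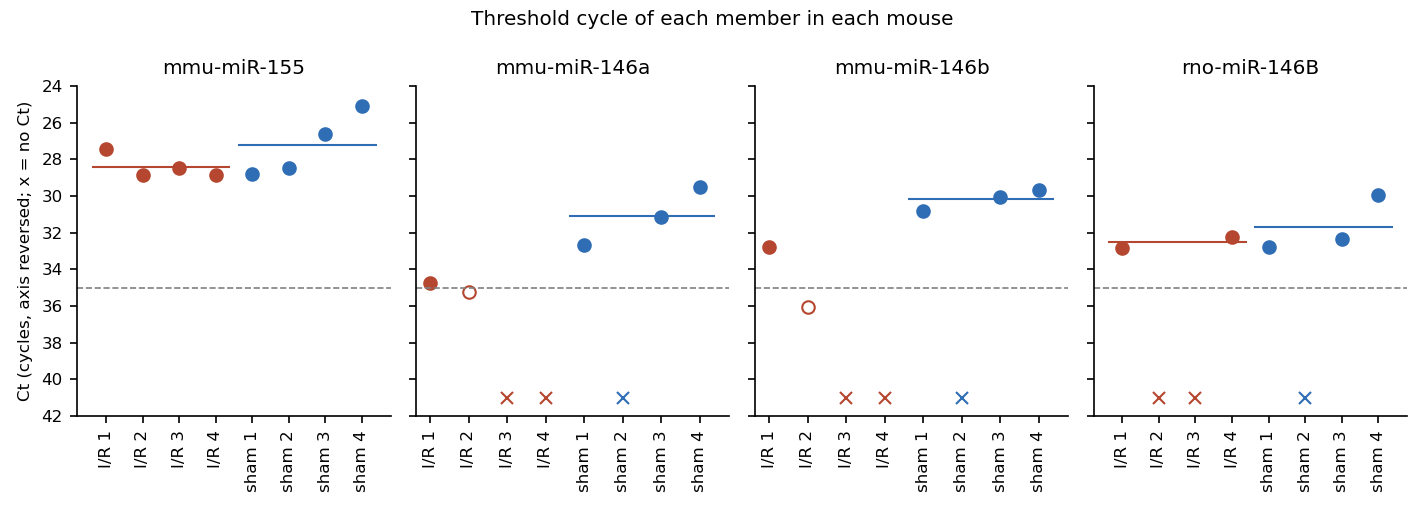
Ct of each assay (cycles, reversed axis, so that more RNA is up) in each mouse, with ischemia/reperfusion (I/R) mice in red and sham mice in blue. Filled points are below Ct 35 (dashed line), open points are at or over it, crosses mark wells without a Ct, and horizontal lines are means of the detected mice of a group with at least 2. miR-155 is read in all 8 mice, and sham mouse 2 has no Ct in any miR-146 assay.

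mmu-miR-146a and mmu-miR-146b were each detected in 1 of 4 ischemia/reperfusion mice and 3 of 4 sham mice, and rno-miR-146B in 2 of 4 ischemia/reperfusion mice and 3 of 4 sham mice. Fisher's exact test on the detection counts (two-sided) gave an unadjusted p of 0.486 for each mouse-designated miR-146 assay and 1 for rno-miR-146B. With 4 against 4 mice, this test gives 0.486 for any split of 3 against 1, and its smallest possible p is 0.0286. It therefore could not call these assays at such counts, and no conclusion is drawn from the lack of a call. Across the 133 assays detected in 1 to 7 mice, the test called 0% at an adjusted p under 0.05, and 0 at an unadjusted p under 0.05. Detection in exactly 3 sham mice and 1 ischemia/reperfusion mouse was seen for 13 of these assays (9.77%), and 107 of them (80.5%) were detected in more sham than ischemia/reperfusion mice. Besides the 2 mouse-designated miR-146 assays, mmu-miR-1274a and mmu-miR-30d were detected in the same 4 mice. No other assay shared the detection pattern of rno-miR-146B. Without sham mouse 2, each mouse-designated miR-146 assay was detected in 1 of 4 ischemia/reperfusion mice and 3 of 3 sham mice (Fisher's exact test, unadjusted p = 0.143).

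Whether a scarce miRNA is read depends on how far each sample reaches. The deposited table subtracts 1 reference Ct per mouse and card, and the sign is turned here (minus delta Ct), so that 1 unit is a doubling if PCR is fully efficient. Ct 35 then falls at a different minus delta Ct in each mouse. On the first card this limit was -13.98, -12.63, -14.48 and -13.33 in ischemia/reperfusion mice 1 to 4, against -14.35, -12.56, -16.00 and -17.06 in sham mice 1 to 4. Sham mouse 2 and ischemia/reperfusion mouse 2 could show the least, and sham mice 3 and 4 the most. Fewer cells of a type and less RNA per cell cannot be told apart in such samples.

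mmu-miR-146a was at -13.71 in ischemia/reperfusion mouse 1, against -12.04, -12.15 and -11.58 in sham mice 1, 3 and 4 (minus delta Ct). A mouse at the lowest of these sham values would have lain above the limit by 2.33 cycles in ischemia/reperfusion mouse 3, by 1.18 in mouse 4 and by 0.48 in mouse 2. Mouse 2, read just past the limit, was at -12.87. With wells without a Ct taken as past the limit, all 4 ischemia/reperfusion mice were read or bounded below the 3 detected sham mice. That assumption was not tested. rno-miR-146B had a Ct of 32.2 in ischemia/reperfusion mouse 4, where neither mouse-designated miR-146 assay had one. In sham mouse 2 the same room was 0.41 cycles. On that assumption its well shows only that mmu-miR-146a was below -12.56, and its order against the ischemia/reperfusion mice is not known.

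mmu-miR-146b was at -11.76 in ischemia/reperfusion mouse 1, against -10.15, -11.08 and -11.72 in sham mice 1, 3 and 4 (minus delta Ct). The gap between that mouse and sham mouse 4 was small beside the spread of the sham mice. The lowest detected sham value lay above the limit by 2.76 cycles in ischemia/reperfusion mouse 3, by 1.61 in mouse 4, by 0.91 in mouse 2 and by 0.84 in sham mouse 2. By this limit alone, a level like that of the detected sham mice could have been read in each mouse where mmu-miR-146b was missing.

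rno-miR-146B was at -11.35 and -10.32 in ischemia/reperfusion mice 1 and 4, against -11.34, -12.14 and -11.14 in sham mice 1, 3 and 4 (minus delta Ct). Ischemia/reperfusion mouse 4 was the highest of the 5. In sham mouse 2 the limit of the second card was -11.97, above the lowest detected sham value, so a mouse at that value would have been missed there.

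**Figure D2:**
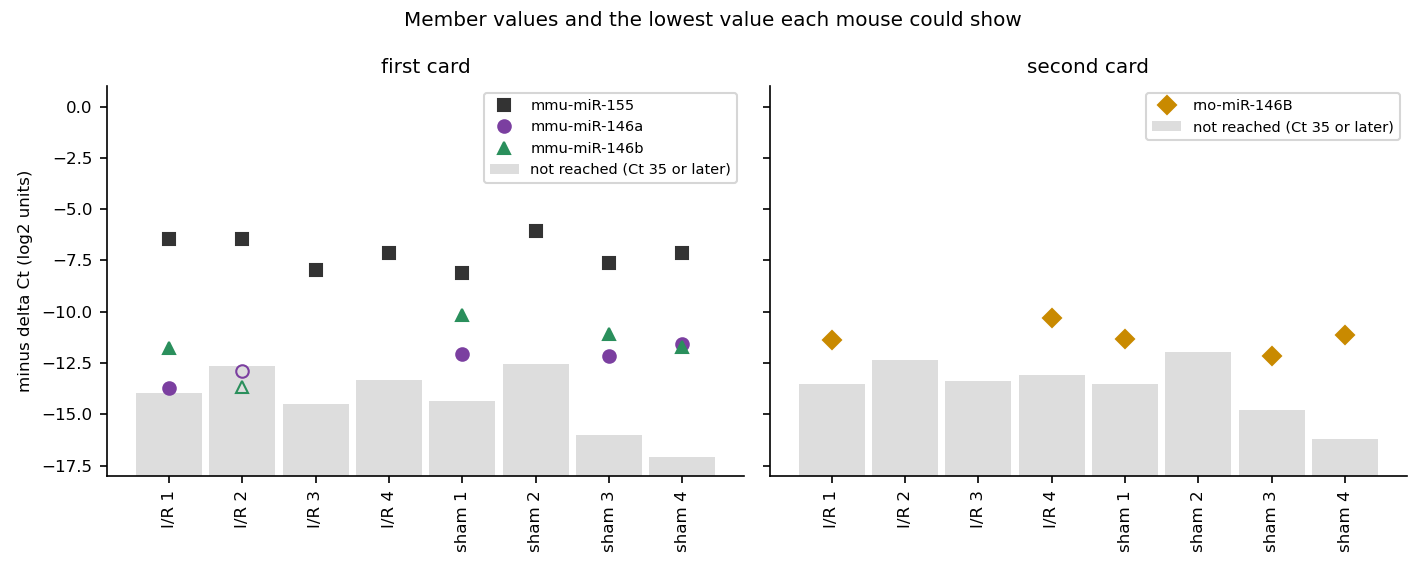
Minus delta Ct (log2 units, against the deposited reference) of the members in each mouse, for the first card on the left and the second card on the right. Grey bars mark values that would need Ct 35 or later, and open symbols are wells read past that limit. The grey bars are highest in I/R mouse 2 and sham mouse 2 and lowest in sham mice 3 and 4, and miR-155 stands well above them in every mouse.

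miR-155 did not differ between the groups by more than the spread between mice. On the minus delta Ct scale it was -6.44, -6.47, -7.94 and -7.16 in ischemia/reperfusion mice 1 to 4, against -8.13, -6.04, -7.61 and -7.13 in sham mice 1 to 4. The highest and the lowest value both belong to sham mice, 2 and 1. The means were -7.00 ± 0.71 after ischemia/reperfusion and -7.23 ± 0.89 in sham mice (SD, n = 4 per group), a log2 difference of 0.23 ± 0.66 (SE). In the limma fit over the 72 miRNAs detected in at least 3 mice of each group, the adjusted p of miR-155 was 0.818 and the unadjusted p 0.738. The 95% interval of the difference ran from -1.27 to 1.73 on the log2 scale, from 0.414-fold to 3.31-fold, so these 8 mice allow a change of that size in either direction. limma called 0% of the 72 miRNAs at an adjusted p under 0.05, and 10 (13.9%) at an unadjusted p under 0.05. Exact permutation over the 8 mice, adjusted in the same way, called 0, with 2 at an unadjusted p under 0.05.

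The direction of miR-155 depends on the reference, while its place among the miRNAs was alike with the deposited reference and with a common reference or none. Its log2 difference was 0.53 when the miRNAs read in every mouse served as reference, 0.16 against the control assays and -1.16 without a reference. The median of the 72 miRNAs was -0.80 with the deposited reference, -0.24 with the miRNA mean, -0.61 with the control assays and -1.93 without a reference. miR-155 was above that median by 1.03 log2 units with the deposited reference and by 0.77 with the other choices. Under each of these 4 choices, 51 of the 72 miRNAs had a lower difference than miR-155. The choices other than the deposited one subtract 1 value per mouse from every assay. Among them, its place against miRNAs read in every mouse is therefore fixed. Only the step from the deposited reference, which differs by card, could move it. With the deposited reference 23 of the 72 (31.9%) had a higher mean after ischemia/reperfusion and 49 (68.1%) a lower one. Without sham mouse 1 the difference of miR-155 was -0.074, and without sham mouse 2 it was 0.62.

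**Figure D3:**
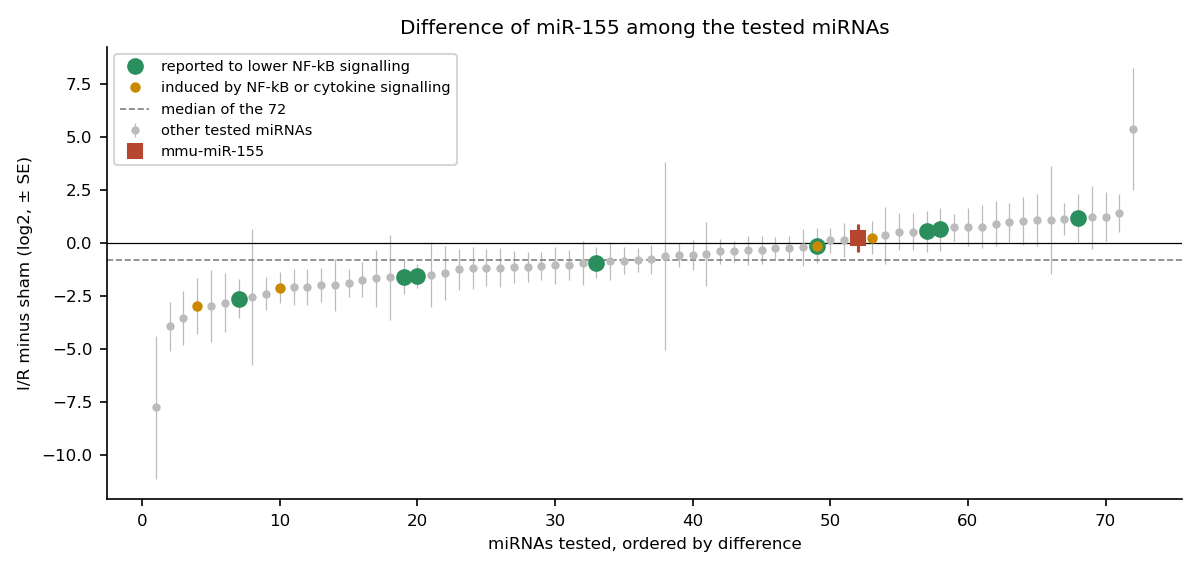
Difference between ischemia/reperfusion (I/R) and sham mice (log2, against the deposited reference) for the 72 tested miRNAs, ordered by size, with standard errors. miR-155 (square, 0.23) lies above the median of -0.80 (dashed line), with miRNAs of the NF-kB lists on both sides of it.

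miR-155 was also set against other miRNAs of the same mouse. With the 33 others on its own card that were detected in all 8 mice, the reference cancels, and miR-155 minus their mean was 0.96, -0.098, -0.17 and 0.69 in ischemia/reperfusion mice 1 to 4, against -2.14, 0.45, -0.40 and -0.17 in sham mice 1 to 4 (log2 units). The groups overlapped, and the difference of 0.91 had an exact two-sided permutation p of 0.143. Over both cards, where the second card keeps its own reference, miR-155 minus the mean of the other 53 miRNAs detected in all 8 mice was 0.40, -0.82, -1.21 and -0.81 in ischemia/reperfusion mice 1 to 4, against -2.95, -0.27, -1.32 and -0.60 in sham mice 1 to 4 (log2 units). The groups overlapped, and sham mouse 1 alone was far below the rest. The means were -0.61 ± 0.70 after ischemia/reperfusion and -1.29 ± 1.19 in sham mice (SD, n = 4 per group), a difference of 0.68 with an exact two-sided permutation p of 0.457, and with the median of the 53 in place of their mean it was 0.78 (exact permutation p = 0.286). The smallest p that 4 against 4 mice allow is 0.0286. Without sham mouse 1 the difference over both cards was 0.12.

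The spread of miR-155 was compared with that of the 54 miRNAs detected in all mice. Its SD over the 8 mice was 0.75 on the minus delta Ct scale, the 8th lowest of the 54, whose median SD was 1.27. Within ischemia/reperfusion mice its SD was the 16th lowest of 54 and within sham mice the 17th lowest. On the Ct scale its SD was the 13th lowest over the 8 mice, the 14th lowest within ischemia/reperfusion mice and the 24th lowest within sham mice, where it was 1.74 cycles beside a median of 1.83. The 4 miRNAs with the profile nearest to miR-155 over the 8 mice, by the root mean square difference after centring, were miR-126-5p (0.56 log2 units), miR-2182 (0.67), miR-19b (0.74) and miR-30a (0.78). A flat profile would be at 0.71, so only miR-126-5p and miR-2182 were nearer to miR-155 than no variation at all. miR-126-5p, an arm of the endothelial miR-126, had a Ct of 27.9, 28.8, 28.6 and 27.8 in ischemia/reperfusion mice 1 to 4, against 27.7, 29.0, 26.4 and 24.9 in sham mice 1 to 4. These values are close to those of miR-155 in each mouse, with the widest gaps, of about 1 cycle, in ischemia/reperfusion mouse 4 and sham mouse 1. The other arm, miR-126-3p, was only 13th nearest, at 1.04, farther than a flat profile. miR-155 minus miR-126-3p was -0.35, -1.24, -1.83 and -1.41 in ischemia/reperfusion mice 1 to 4. In sham mice 1 to 4 it was -3.81, -2.76, -2.63 and -2.88 (log2 units). miR-126-3p itself was lower after ischemia/reperfusion (-1.59), and this pair was not tested.

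**Figure D4:**
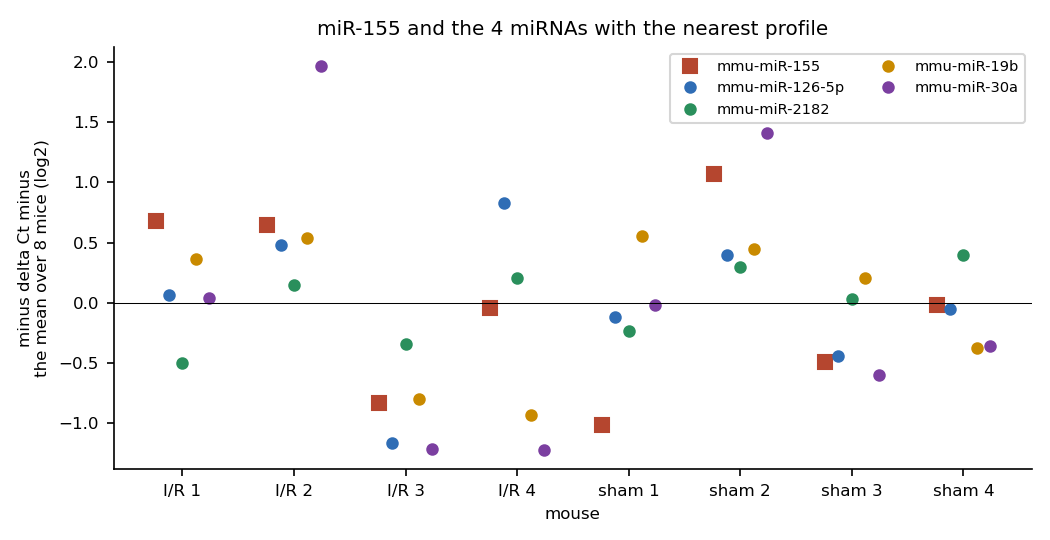
Minus delta Ct of miR-155 (squares) and of the 4 miRNAs with the nearest profile, each minus its own mean over the 8 mice (log2 units), with ischemia/reperfusion (I/R) mice left of sham mice. miR-155 is highest in sham mouse 2 and lowest in sham mouse 1, and miR-126-5p is the nearest of the 4, at a root mean square difference of 0.56.

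miR-155 and the mouse-designated miR-146 assays are on the same card, so their difference within a mouse is free of the reference. miR-155 was above mmu-miR-146a by 7.26 log2 units in ischemia/reperfusion mouse 1 and by at least 6.16, 6.54 and 6.17 in mice 2 to 4, with undetected wells at Ct 35. In sham mice 1, 3 and 4 the gap was 3.91, 4.54 and 4.45, and in sham mouse 2 it was at least 6.51. Where a well without a Ct is taken as past Ct 35, all ischemia/reperfusion mice had a wider gap than 3 of the sham mice. Sham mouse 2, known only by its bound, cannot be ordered against the ischemia/reperfusion mice. Such a gap includes the unlike efficiency of the 2 assays, which is the same in every mouse, so only its change between mice can be read.

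For mmu-miR-146b the gap was 5.32 in ischemia/reperfusion mouse 1 and at least 6.16, 6.54 and 6.17 in mice 2 to 4, against 2.02, 3.48 and 4.59 in sham mice 1, 3 and 4 and at least 6.51 in sham mouse 2. As for mmu-miR-146a, and on the same assumption for wells without a Ct, the ischemia/reperfusion mice had a wider gap than 3 of the sham mice. Unlike there, sham mouse 2 had a wider gap than ischemia/reperfusion mouse 1, so the groups overlapped. It cannot be ordered against ischemia/reperfusion mice 2 to 4. For rno-miR-146B, read on the other card and set against its own reference, the gap was 4.91 and 3.16 in ischemia/reperfusion mice 1 and 4 and at least 5.90 and 5.45 in mice 2 and 3, against 3.21, 4.53 and 4.01 in sham mice 1, 3 and 4 and at least 5.93 in sham mouse 2. The groups overlapped, since ischemia/reperfusion mouse 4 had the narrowest gap. On the same assumption, ischemia/reperfusion mice 1 to 3 had a wider gap than the 3 measured sham mice.

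A second limma fit took in members read in part of the mice, with undetected wells set to Ct 35 and a filter of detection in at least 4 of the 8 mice, whatever their group. This left 107 miRNAs, of which limma called 1 (0.935%), hsa-miR-421 (named after its values were seen), at an adjusted p under 0.05, and 15 (14.0%) at an unadjusted p under 0.05. mmu-miR-146a averaged -13.53 ± 0.77 after ischemia/reperfusion and -12.08 ± 0.40 in sham mice (SD, n = 4 per group), where 3 of the ischemia/reperfusion values and 1 of the sham values are limits. The difference of -1.45 ± 0.63 (SE, log2) did not pass in limma (adjusted p = 0.335, unadjusted p = 0.0479). With those limits the groups of mmu-miR-146a did not overlap, which also held for 6.54% of the 107 miRNAs in that direction. This separation comes from the limits. Sham mouse 2 at -12.56 and ischemia/reperfusion mouse 2 at -12.63 are both limits, which differ only by the reference Ct, so their true order is not known. mmu-miR-146b differed by -1.67 ± 0.82 (SE, n = 4 per group; limma adjusted p = 0.384), with overlapping groups and limits in the same mice as mmu-miR-146a. rno-miR-146B differed by -0.21 ± 0.78 (SE, n = 4 per group; limma adjusted p = 0.890), with a 95% interval from -2.00 to 1.58. Its values in ischemia/reperfusion mice 2 and 3 and in sham mouse 2 are limits. A limit is set by the reference Ct of its mouse. The SE, p and interval of the miR-146 assays thus measure in part the spread of the reference. Without sham mouse 2 the differences were -1.61 for mmu-miR-146a, -2.06 for mmu-miR-146b (limma adjusted p = 0.191 for both) and -0.32 for rno-miR-146B.

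The median of the 107 miRNAs was -0.93, and 76 of them (71.0%) had a lower mean after ischemia/reperfusion. Against that median, mmu-miR-146a was lower by 0.52 and mmu-miR-146b lower by 0.74 log2 units, and rno-miR-146B was higher by 0.72. Of the 107, 38 had a lower difference than mmu-miR-146a and 29 a lower one than mmu-miR-146b. Both mouse-designated assays entered the fit through 3 sham mice and 1 ischemia/reperfusion mouse. The number of detected assays and the limit given above also differed among the mice, the tested fibroblast and smooth muscle markers had lower means after ischemia/reperfusion too, and their part in the difference was not tested.

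**Figure D5:**
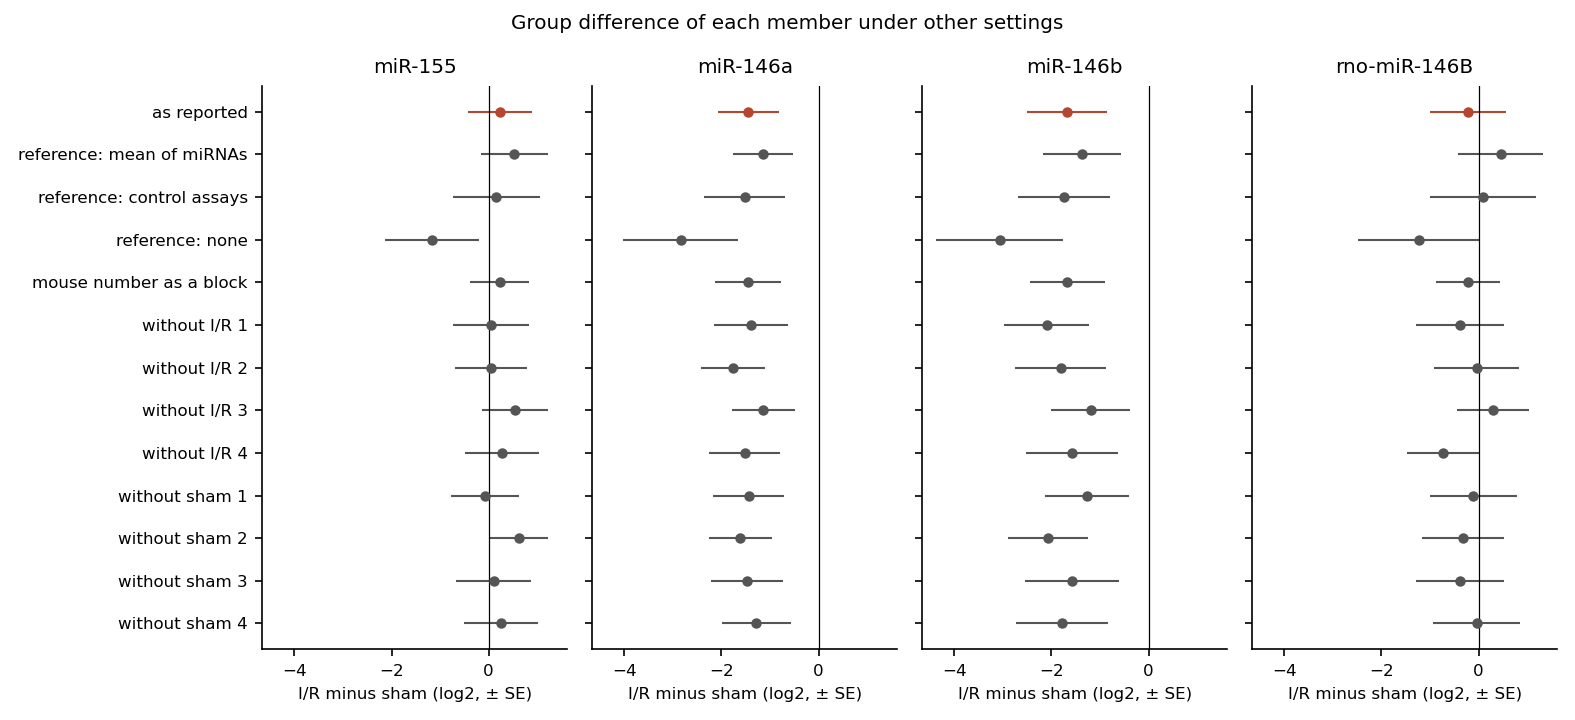
Difference between ischemia/reperfusion (I/R) and sham mice (log2, with its standard error) for the 4 members under other references, with mouse number as a block and without each mouse. miR-155 is from the fit of detected wells and the others from the fit with undetected wells at Ct 35. miR-146a and miR-146b stay below 0 in all settings drawn, while miR-155 and rno-miR-146B lie on either side of 0. miR-146a and miR-146b were each detected in 1 of 4 I/R mice and 3 of 4 sham mice, so most of their I/R values are limits.

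As ischemia/reperfusion over sham, the fold in the authors' deposited table is 0.389 for mmu-miR-146a, 0.301 for mmu-miR-146b, 1.63 for rno-miR-146B and 1.17 for miR-155. Each of the values for the miR-146 assays rests on 2 ischemia/reperfusion wells and 3 sham wells, since wells without a Ct were left out. For the mouse-designated assays 1 of those 2 wells was past Ct 35. With wells below Ct 35 alone the fold was 0.291 for mmu-miR-146a and 0.582 for mmu-miR-146b, each from 1 ischemia/reperfusion well, so neither has a replicate check. The deposited folds of the 2 assays named for miR-146b thus lay on opposite sides of 1. They rest on different ischemia/reperfusion wells, mice 1 and 2 for mmu-miR-146b and mice 1 and 4 for rno-miR-146B. With undetected wells at Ct 35 both log2 differences were below 0, at -1.67 and -0.21. In the mice where both were detected, rno-miR-146B minus mmu-miR-146b was 0.41 in ischemia/reperfusion mouse 1, against -1.19, -1.06 and 0.58 in sham mice 1, 3 and 4 (minus delta Ct, each card against its own reference). The sign of this difference was not the same in all sham mice.

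Of 11 assays for other miRNAs that are induced by NF-kB, Toll-like receptor or cytokine signalling, 8 were detected in at least 1 mouse and 4 were tested. None of the 4 passed the limma threshold, 3 were lower and 1 higher after ischemia/reperfusion, and their median log2 difference was -1.13 beside -0.80 for all 72. miR-21, induced through STAT3 and AP-1, was at -2.99 ± 1.33 (SE, 3 values per group; limma adjusted p = 0.362). miR-222, which represses the stem cell factor receptor KIT, was at -2.12 ± 0.74 (SE, n = 4 per group; limma adjusted p = 0.228). miR-31, which represses E-selectin in human endothelium, was at -0.14, and miR-125b-5p, which represses TNF, was at 0.24. miR-221 and miR-301a were detected in 0 of 4 ischemia/reperfusion mice and 3 of 4 sham mice. These were sham mice 1, 3 and 4, the sham mice in which the miR-146 assays were detected. Unlike miR-221 and miR-301a, each miR-146 assay was also detected in ischemia/reperfusion mouse 1, and rno-miR-146B in mouse 4 too. miR-212 went the other way from miR-221 and miR-301a, detected in 3 of 4 ischemia/reperfusion mice and 0 of 4 sham mice.

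Of 12 assays for miRNAs reported to lower NF-kB signalling or its endothelial targets, 8 were tested and none passed the limma threshold. Of these, 5 were lower and 3 higher after ischemia/reperfusion, with a median of -0.54 beside -0.80 for all 72. miR-126-3p, which represses the adhesion molecule VCAM1 in human endothelium, was at -1.59 ± 0.57, and miR-199a-3p was at -2.65 ± 0.92 (SE, n = 4 per group; limma adjusted p = 0.228 for both). miR-16 was at -1.60, miR-92a at -0.93 and miR-31 at -0.14, while miR-181a was at 0.53 and the 2 assays for miR-223 were at 0.63 and 1.15.

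miR-155 is also abundant in leukocytes, so its values are set beside the leukocyte markers read in all mice. miR-223, a myeloid miRNA, had a Ct of 31.2, 30.9, 33.2 and 31.9 in ischemia/reperfusion mice 1 to 4, against 33.3, 31.9, 29.8 and 29.2 in sham mice 1 to 4 (mmu-miR-223 assay). miR-155 was above it by 3.70, 2.09, 4.73 and 3.09 log2 units in ischemia/reperfusion mice 1 to 4, against 4.48, 3.42, 3.20 and 4.11 in sham mice 1 to 4, and the groups overlapped. miR-150, a lymphocyte miRNA, ranged from Ct 26.7 to 34.7 in ischemia/reperfusion mice and from 24.6 to 29.0 in sham mice, a wider range than that of miR-155 in both groups. Against the mean of the 3 marker assays (miR-223 in 2 assays, 1 of them on the second card, and miR-150), miR-155 differed by 0.17 log2 units between the groups (exact permutation p = 0.857). miR-142-3p, a marker of all blood cells, was detected in 2 of 4 ischemia/reperfusion mice and 1 of 4 sham mice, and miR-142-5p in none.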

How the data were processed

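RNA isolated with a mirVana kit was read by real-time PCR with the dye FAM on a 7900HT instrument, per the labels' protocols. The authors deposited Ct values, delta Ct values on a log2 scale (Ct minus 1 reference per sample and card) and fold changes, a linear ratio of ischemia/reperfusion over sham, per the file headers. The sources used here name neither the reference RNA nor the software. In 13 wells with a delta Ct but no Ct, the value was treated as missing. Repeated wells were averaged. The members and the lists were chosen with earlier results of these data known.

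Groups were compared with limma 3.58.1 (lmFit, eBayes) under R 4.3.3 by two-sided tests, and p-values were adjusted over all miRNAs tested (Benjamini-Hochberg, threshold 0.05). The fit was tested on simulated data. The number of mice limits the precision, and p-values measure the spread between these samples. Named miRNAs were the members, the 4 nearest profiles to a member read in all mice, assays sharing a member's detection pattern, and the listed miRNAs. Alternatives were other references, detection limits, filters, treatments of undetected wells, moderation, a block by mouse number, exact tests and leaving out each mouse.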

Additional observations from a re-analysis of the deposited data

How the results depend on the processing

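miR-155 stayed short of the threshold under every setting run. It was below Ct 32 in every mouse, so detection limits, filters and treatments of undetected wells could not move its log2 difference. Moderation, the replicate block and the exact test leave that difference as it is and change only its p. Among the settings that could move it, the sign turned without a reference, where it was -1.16, and when sham mouse 1 was left out. Leaving out each mouse gave -0.074 to 0.62. miR-146a and miR-146b stayed below 0 and short of the adjusted threshold in every setting that gave a value, from -1.75 to -1.14 and from -2.10 to -1.19 without each mouse. Outside those, miR-146a was at -2.84 without a reference, -2.76 with any Ct under 40 and -1.78 with undetected wells missing, and miR-146b at -3.06, -3.18 and -0.78 in the same settings. They had no value at a limit of Ct 32, where fewer than 4 mice were detected. The settings share the same wells, and each assay was detected below Ct 35 in 1 of 4 ischemia/reperfusion mice and 3 of 4 sham mice. Most ischemia/reperfusion values are therefore limits, and the constant sign is not independent support. For miR-146a the unadjusted limma p was 0.0980 against the miRNA mean and 0.0888 with the replicate block. rno-miR-146B turned to 0.46 against the miRNA mean, 0.089 against the control assays and 0.70 with undetected wells missing, and ranged from -0.72 to 0.30 without each mouse; without ischemia/reperfusion mouse 3 it was 0.30. The cause of these turns was not tested. The count of called miRNAs was 0 in the fit of detected wells, 1 with any Ct under 40, and 0 to 1 without each mouse (1 without sham mouse 1 or 2). With undetected wells at Ct 35 the count of 1 was 0 against the control assays, at a limit of Ct 32, with any Ct under 40, with trend and robust moderation, with the replicate block, with undetected wells missing and in the exact test, and 0 to 4 without each mouse (4 without sham mouse 2). No member was among these calls. Detection of the members gave no call in any setting, where so few mice left hardly any room for one. The share of mice differed by -75% to -41.7% for each mouse-designated miR-146 assay and -50% to -8.33% for rno-miR-146B without each mouse, in percentage points. miR-155 against the other miRNAs ranged from 0.12 to 1.02 without each mouse, and the comparison with leukocyte markers was added after seeing the data. The labels do not pair mice by number, and the deviations of same-numbered mice correlated at -0.38, -0.15, 0.02 and -0.25; with mouse number as a replicate block miR-155 was at 0.23 and no member's call changed.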
